A study of Mus musculus with 24 samples.

Results

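The 10 genes described here, *T* (brachyury), *Cdx1*, *Cdx2*, *Cdx4*, *Mixl1*, *Eomes*, *Evx1*, *Tbx6*, *Foxa2* and *Gsc*, encode transcription factors of the primitive streak and of the posterior embryo. They were taken by symbol, and each had 1 row among the 35022 genes counted after PD03 removal and the 48709 genes counted after CHIRON removal. E14 mouse embryonic stem cells (mESCs, genotype given as 129m wt), an established line, grew for 12 h on soft or stiff StemBond hydrogels, which carry a fibronectin coat, in 2i + LIF. The medium combines the cytokine LIF with PD03 at 1 µM, which inhibits MEK and so blocks the ERK pathway, and CHIRON at 3 µM, which inhibits GSK3 and so stabilises β-catenin. Libraries were made before the change of medium (0 h) and 2 h and 12 h after PD03 was left out (CHIRON + LIF) or CHIRON was left out (PD03 + LIF), to find stiffness-dependent targets of ERK and Wnt signalling. LIF was thus present in every group, and each experiment had its own 0 h libraries and 6 groups of substrate and time with 2 libraries each, 24 in all.

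The primitive streak is the region of the gastrulating embryo through which epiblast cells leave to form mesoderm and endoderm. Wnt and Nodal signals start *T*, *Eomes*, *Mixl1* and *Evx1* there, *Tbx6* follows in the paraxial mesoderm, and *Gsc* and *Foxa2* belong to the anterior streak and the tissues that come from it. The *Cdx* genes give cells a posterior identity and, with *T*, are known targets of Wnt and β-catenin, whereas *Cdx2* and *Eomes* are also used in the trophoblast.

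Total counts were between 16222196 and 26442153 per library for PD03 removal and between 19393787 and 31111260 for the 11 libraries of CHIRON removal that were used. A further library of CHIRON removal, from stiff substrates at 2 h, held 171333 counts, of which *T* had 3, *Cdx2* 2, *Cdx1* 1 and the other genes 0. It was left out, so the remaining stiff library at 2 h was assumed to vary like the other groups. All 7 markers of embryonic stem cells (*Pou5f1*, *Sox2*, *Nanog*, *Esrrb*, *Klf4*, *Zfp42* and *Tfcp2l1*) were present, with summed levels between 5601 and 7127 CPM (counts scaled to a common library size) in PD03 removal and between 4944 and 5469 CPM in CHIRON removal. Markers of endoderm summed to between 2.21 and 3.89 CPM in PD03 removal and between 9.93 and 16.4 CPM in CHIRON removal. The latter sum was mostly *Dab2* (6.58 to 11.1 CPM). Those of fibroblasts summed to between 1.03 and 2.49 CPM and between 3.83 and 6.78 CPM in the respective experiment. The labels do not say that replicates were separate cultures, so p-values measure the spread between these libraries, which may be technical. In bulk RNA, fewer cells that express a gene and less RNA per cell cannot be told apart.

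Promoter sequences are shown for *T* and *Cdx2*, which fell after CHIRON removal, and for *Eomes*, which had its larger response after PD03 removal. They are RefSeq windows on GRCm38.p6, reaching from up to 250 bases upstream to the base before the RefSeq start, or before the GENCODE gene where that begins earlier, at chr17:8434173-8434422 (plus strand), chr5:147307271-147307499 (minus strand) and chr9:118477939-118478188 (plus strand). The RefSeq start of *Eomes* lies upstream of the GENCODE start given for the gene here. Capitals mark a match to either of the 7-base motifs described after them.
*T*: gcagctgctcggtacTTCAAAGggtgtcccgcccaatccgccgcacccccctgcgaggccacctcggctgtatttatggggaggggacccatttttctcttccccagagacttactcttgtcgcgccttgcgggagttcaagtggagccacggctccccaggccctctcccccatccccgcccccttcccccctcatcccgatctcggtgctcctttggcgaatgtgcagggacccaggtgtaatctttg
*Cdx2*: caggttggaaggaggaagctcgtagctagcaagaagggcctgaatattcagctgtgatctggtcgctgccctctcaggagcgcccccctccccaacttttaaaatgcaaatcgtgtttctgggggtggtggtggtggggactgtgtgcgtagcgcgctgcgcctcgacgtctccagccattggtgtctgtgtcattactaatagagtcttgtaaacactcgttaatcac
*Eomes*: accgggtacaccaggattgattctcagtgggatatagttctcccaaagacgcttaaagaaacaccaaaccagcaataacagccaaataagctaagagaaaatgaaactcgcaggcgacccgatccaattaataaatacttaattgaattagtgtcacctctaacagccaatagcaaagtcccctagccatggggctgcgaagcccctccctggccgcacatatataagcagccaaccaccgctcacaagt
Windows of 8 of the 10 genes, not *Cdx1* and *Mixl1*, were searched, 10 windows in all. The core of the TCF/LEF motif, CTTTGAT on either strand, was found in 3.73% of the 32851 windows of the table, each reaching from 250 bases before to 50 bases after a start. Among the matched genes it was found in 1 window of *Foxa2*, after the start, and in none of *T*, *Cdx2* or *Eomes*. The variant CTTTGAA, which was chosen after the data were seen, was found in 5.14% of all windows, and *T* carried its reverse complement TTCAAAG from 235 to 229 bases upstream of the start. These matches describe letters in a window and not binding.

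In 2i + LIF, *Cdx1* (chromosome 18, 61018862 to 61036199 of GRCm38) stood far above the other genes per kilobase of exon. At 0 h its mean level was 84.0 CPM per kilobase in PD03 removal (lowest 81.5 and highest 87.5 of 4 libraries, both substrates) and 92.3 in CHIRON removal (87.9 to 97.0). The next levels in PD03 removal were those of *Cdx2* (6.32 CPM per kilobase), *T* (5.16) and *Gsc* (4.12), and each overlapped the next over the 4 libraries. *Eomes* (1.27 CPM per kilobase) and *Evx1* (0.913) overlapped each other below them, followed by *Mixl1* (0.245), *Tbx6* (0.143), *Cdx4* (0.104) and *Foxa2* (0.0683), which overlapped from one to the next. In CHIRON removal *T* came second with 3.54 CPM per kilobase and did not overlap *Eomes* (2.67), whereas *Eomes*, *Gsc* (2.44) and *Cdx2* (2.19) overlapped from one to the next. Below these were *Mixl1* (0.714), *Tbx6* (0.406), *Evx1* (0.362), *Cdx4* (0.112) and *Foxa2* (0.0314). The experiments were normalised separately, so the levels of one are not compared with those of the other. The filter on low counts was passed by 7 of the 10 genes in PD03 removal (not *Cdx4*, *Tbx6* and *Foxa2*) and by 8 in CHIRON removal (not *Cdx4* and *Foxa2*).

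Removal of CHIRON was followed at 12 h by a fall of *T*, *Cdx1* and *Cdx2* on both substrates. *T* (chromosome 17, 8434423 to 8442496), the T-box factor that defines the streak and posterior mesoderm, had 7.42 and 8.88 CPM on soft substrates and 7.52 and 8.93 CPM on stiff substrates at 0 h. At 12 h it had 0.264 and 0.324 CPM (7 and 5 counts) on soft and 0.154 and 0.108 CPM (3 and 2 counts) on stiff substrates. Every library at 12 h was thus far below every library at 0 h. The summed counts of *T*, scaled for depth, were 28.7 times higher at 0 h than at 12 h on soft substrates (exact 95% interval 16.2 to 56.0) and 62.6 times higher on stiff substrates (26.5 to 194). These intervals cover counting error only, since reads without molecular identifiers are not independent molecules. The fitted log2 fold changes were −4.80 on soft (standard error 0.30, edgeR adjusted p = 5.8e-09) and −5.90 on stiff substrates (standard error 0.35, edgeR adjusted p = 4.5e-09), where p-values came from the quasi-likelihood F-test of edgeR and were adjusted by Benjamini-Hochberg, with a threshold of 0.05.

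*Cdx1*, a homeobox gene that responds to Wnt in the posterior embryo, had 169.8 and 166 CPM on soft and 154 and 157 CPM on stiff substrates at 0 h. At 12 h 8.93 and 13.9 CPM remained on soft and 7.96 and 9.15 CPM on stiff substrates. Although *Cdx1* fell as clearly as *T*, it was still read by between 155 and 237 counts per library. Its summed counts were 15.6 times higher at 0 h than at 12 h on soft (exact 95% interval 14.2 to 17.2) and 18.2 times higher on stiff substrates (16.3 to 20.4). Its log2 fold changes were −3.92 (standard error 0.13, edgeR adjusted p = 2.8e-12) and −4.18 (standard error 0.14, edgeR adjusted p = 2.1e-12).

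*Cdx2* (chromosome 5, 147300805 to 147307270), a homeobox gene of the posterior embryo and the trophectoderm, went from 3.49 and 5.71 CPM to 0.151 and 0 CPM on soft substrates. On stiff substrates it went from 6.66 and 3.95 CPM to 0.0514 and 0.0538 CPM. It was thereby close to absent from the counts at 12 h, with 4 and 0 counts in the soft libraries and 1 in each stiff library. The ratio of summed counts was 49.0 on soft (204 against 4 counts, exact 95% interval 18.9 to 182) and 101 on stiff substrates (196 against 2 counts, 27.6 to 839). The fitted log2 fold changes were −5.52 and −6.49 (edgeR adjusted p = 2.8e-06 and 1.5e-06). With so few counts at 12 h the fitted value depends on how 0 counts are handled, and without soft 12 h replicate 1 it was −9.47 and without soft 12 h replicate 2 it was −4.90. The markers of trophoblast, which also uses *Cdx2*, summed to between 76.8 and 85.2 CPM at 12 h against 59.3 to 67.6 CPM at 0 h, with 1 of 5 tested markers higher on each substrate, and their part in the fall of *Cdx2* was not tested. The sum was mostly *Tfap2c* (49.3 to 61.8 CPM over all libraries) and *Gata3* (6.01 to 24.6 CPM), whereas *Elf5*, *Hand1*, *Ascl2* and *Krt7* stayed at or below 3.20 CPM. Of all tested genes 10.4% were higher on soft and 9.45% on stiff substrates. None of the 6 trophoblast markers was at 0 in all libraries. The 3 markers of neuroectoderm summed to between 27.6 and 31.7 CPM at 12 h against 13.7 to 17.6 CPM at 0 h. Of the 2 that were tested, 1 was higher on each substrate. This sum was mostly *Sox1* (11.3 to 29.2 CPM over all libraries), whereas *Pax6* stayed at or below 3.61 CPM and *Pax3* at or below 0.324 CPM. The embryonic stem cell markers summed to between 5184 and 5469 CPM at 12 h against 5173 to 5411 CPM at 0 h, with 3 higher and 3 lower of 7 on soft and 4 higher and 2 lower on stiff substrates. The part of either list in the falls of *T*, *Cdx1* and *Cdx2* was not tested.

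**Figure D1:**
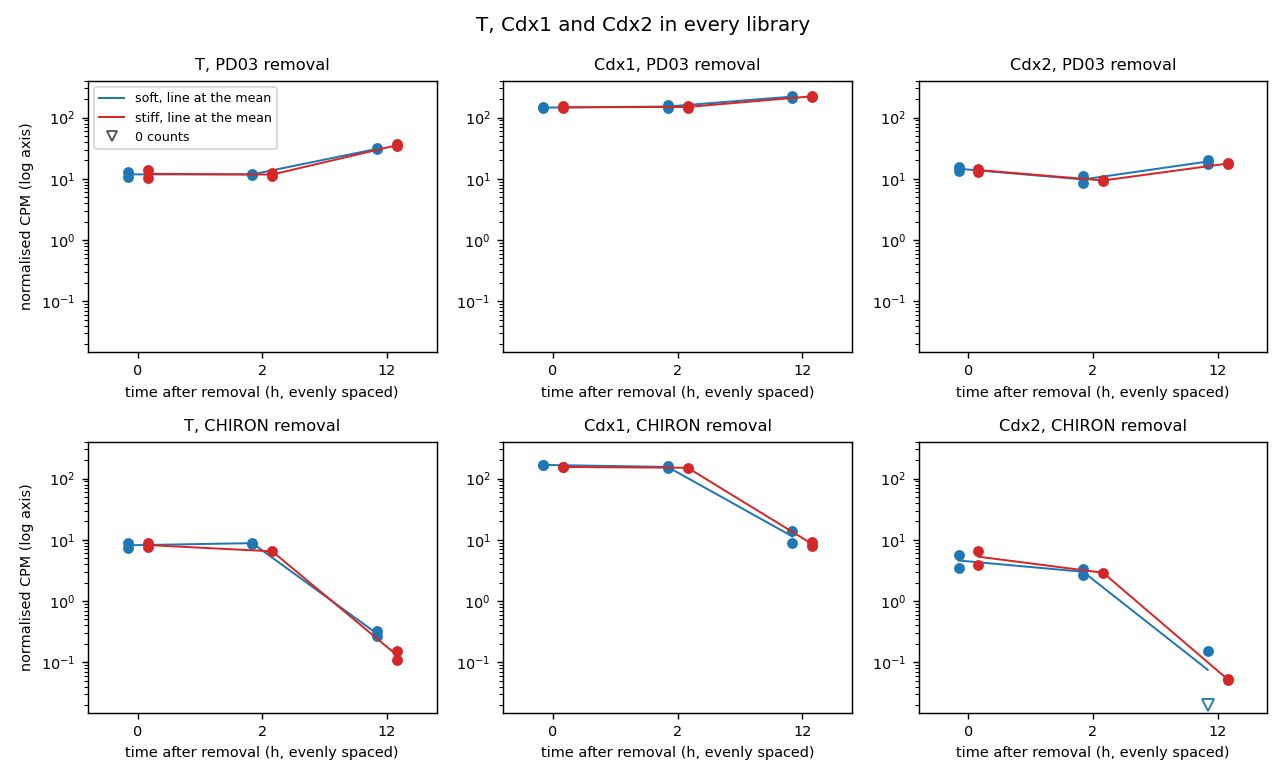
Normalised CPM (log axis) of *T*, *Cdx1* and *Cdx2* in every library against time after removal (0, 2 and 12 h, evenly spaced), with PD03 removal in the upper and CHIRON removal in the lower panels. Points are libraries, lines join group means of soft (blue) and stiff (red) substrates and the open triangle is a library with 0 counts. At 12 h after CHIRON removal *T* lies between 0.108 and 0.324 CPM, below every library of the earlier times.

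Of the 8 tested genes, 3 were thus lower on soft and 4 on stiff substrates at 12 h after CHIRON removal and none was higher, whereas 7.95% and 8.14% of all tested genes were lower on the respective substrate and 10.4% and 9.45% were higher. The fourth gene on stiff substrates was *Eomes*, which is described below with its alternatives. The median log2 fold change of the 8 genes was −0.27 on soft and −0.85 on stiff substrates, beside 0.0086 and 0.0045 over all tested genes. From 2 h to 12 h *T*, *Cdx1* and *Cdx2* fell on both substrates, where 8.28% (soft) and 5.34% (stiff) of all genes were lower and 9.61% and 5.58% higher, with log2 fold changes of −4.92, −3.81 and −4.90 on soft and −5.56, −4.14 and −5.63 on stiff substrates. Without soft 12 h replicate 1 the value of *Cdx2* on soft substrates was −8.85, and without soft 12 h replicate 2 it was −4.27.

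At 2 h after CHIRON removal no gene of the 8 passed the test, against 0.184% of all genes on soft and 0.099% on stiff substrates by edgeR. At an unadjusted p under 0.05 there was 1 of the 8 on soft (*Tbx6*) and 0 on stiff substrates, where 9.01% and 7.08% of all genes reached this value, and DESeq2 called 0 on either. *T* had 8.63 and 9.04 CPM on soft substrates and 6.50 CPM in the stiff library at 2 h, which gave log2 fold changes of 0.11 (95% interval −0.27 to 0.50) and −0.34 (−0.83 to 0.15) against 0 h. *Cdx1* had 163 and 148 CPM on soft substrates and 150.8 CPM in the stiff library. *Cdx2* had 3.34 and 2.67 CPM on soft substrates and 2.90 CPM in the stiff library, and its log2 fold changes were −0.62 (95% interval −1.33 to 0.089) and −0.87 (−1.74 to 0.0067). The intervals of *Cdx1* were −0.34 to 0.12 on soft and −0.32 to 0.24 on stiff substrates, so any early change of *Cdx1* was small next to the one at 12 h.

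Removal of PD03, with CHIRON kept, moved the same 3 genes in the other direction and by less. *T* went from 12.8 and 10.9 CPM at 0 h to 31.5 and 30.3 CPM at 12 h on soft substrates, and from 13.7 and 10.4 CPM to 34.1 and 36.7 CPM on stiff substrates. All 4 libraries at 12 h were above all 8 earlier libraries. The log2 fold changes of *T* were 1.38 on soft (standard error 0.12, edgeR adjusted p = 3.3e-10) and 1.57 on stiff substrates (standard error 0.11, edgeR adjusted p = 8.8e-12). *Cdx1* went from 143 and 148 to 213 and 229 CPM on soft and from 143 and 153 to 221 and 226 CPM on stiff substrates, with log2 fold changes of 0.60 (standard error 0.056, edgeR adjusted p = 2.6e-09) and 0.59 (standard error 0.056, edgeR adjusted p = 1.6e-09). At 2 h the log2 fold changes of *T* were −0.0037 (95% interval −0.28 to 0.27) and −0.018 (−0.29 to 0.25) and those of *Cdx1* were 0.059 (−0.060 to 0.18) and 0.015 (−0.10 to 0.13), so that neither gene passed the test before 12 h. Between 2 h and 12 h both rose on each substrate, *T* by 1.38 and 1.58 and *Cdx1* by 0.54 and 0.58 on the log2 scale.

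*Cdx2* was lower at 2 h and higher at 12 h after PD03 removal. Its levels were 15.6 and 13.7 CPM at 0 h, 11.0 and 8.59 CPM at 2 h and 17.7 and 20.6 CPM at 12 h on soft substrates. On stiff substrates they were 14.7 and 13.1, 9.46 and 9.35, and 18.1 and 17.4 CPM. The groups of the 3 times did not overlap on either substrate, and the share of all genes for which this held was not counted. The log2 fold change at 2 h was −0.58 on soft (edgeR adjusted p = 0.018) and −0.56 on stiff substrates (edgeR adjusted p = 0.015), and from 2 h to 12 h *Cdx2* rose by 0.97 and 0.92. At 12 h against 0 h it was 0.39 higher on soft (edgeR adjusted p = 0.016) and 0.36 higher on stiff substrates (edgeR adjusted p = 0.025). With DESeq2 these 2 comparisons had adjusted p = 0.052 and 0.070 (DESeq2, Wald test), and the rise was also no longer called without soft 0 h replicate 2 (0.31), soft 12 h replicate 2 (0.28), stiff 0 h replicate 2 (0.27), stiff 12 h replicate 1 (0.32) or stiff 12 h replicate 2 (0.39). The fall at 2 h was not called without soft 0 h replicate 1 (−0.48), soft 2 h replicate 2 (−0.42), stiff 0 h replicate 1 (−0.48), stiff 2 h replicate 1 (−0.57) or stiff 2 h replicate 2 (−0.55). The rise from 2 h to 12 h passed in every alternative.

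*Eomes* (chromosome 9, 118478212 to 118486132), a T-box gene of the anterior streak and mesendoderm, rose after PD03 removal on both substrates. It had 5.52 and 6.78 CPM at 0 h and 14.99 and 15.2 CPM at 12 h on soft substrates. The stiff libraries had 4.22 and 4.61 CPM at 0 h and 20.7 and 18.6 CPM at 12 h. The log2 fold changes were 1.30 (standard error 0.15, edgeR adjusted p = 1.4e-07) and 2.15 (standard error 0.16, edgeR adjusted p = 7.4e-12). The groups of 0 h and 12 h did not overlap, which was not counted over all genes. At 2 h *Eomes* had 6.77 and 6.44 CPM on soft substrates, and the log2 fold change of 0.11 (95% interval −0.25 to 0.47) did not pass. On stiff substrates it had 6.59 and 9.06 CPM and rose by 0.81 (edgeR adjusted p = 0.0056), which was not called without stiff 0 h replicate 1 (0.75) or stiff 2 h replicate 2 (0.57).

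After CHIRON removal *Eomes* stayed between 7.81 and 12.0 CPM in all 11 libraries. On soft substrates it had 10.7 and 11.5 CPM at 0 h, 8.21 and 10.7 CPM at 2 h and 9.45 and 10.4 CPM at 12 h. On stiff substrates it had 11.5 and 10.7 CPM at 0 h, 12.0 CPM in the library at 2 h and 7.81 and 8.23 CPM at 12 h. The log2 fold change at 12 h was −0.16 on soft (95% interval −0.49 to 0.16) and −0.47 on stiff substrates (edgeR adjusted p = 0.0499), a call at the threshold that was lost in 12 of 18 alternatives. These were DESeq2 (adjusted p = 0.077), all genes (0.076), a replicate block (0.057), only the groups compared (0.052), all 12 libraries (0.42), and leaving out either replicate of soft 0 h, stiff 0 h or stiff 12 h or the stiff 2 h library, where the log2 fold change was between −0.52 and −0.42.

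*Evx1* (chromosome 6, 52313498 to 52318378), a homeobox gene of the posterior streak, also rose after PD03 removal. On soft substrates it went from 2.53 and 2.16 CPM at 0 h to 5.49 and 4.21 CPM at 2 h and 5.71 and 5.99 CPM at 12 h. On stiff substrates it went from 3.12 and 2.70 CPM to 4.89 and 3.38 CPM at 2 h and 10.5 and 8.08 CPM at 12 h. The log2 fold changes at 12 h were 1.31 on soft (standard error 0.23, edgeR adjusted p = 7.3e-05) and 1.69 on stiff substrates (standard error 0.21, edgeR adjusted p = 2.2e-07). At 2 h *Evx1* was 1.05 higher on soft substrates (edgeR adjusted p = 0.014), a call lost without soft 0 h replicate 1 (1.17), soft 0 h replicate 2 (0.95) or soft 2 h replicate 1 (0.84). On stiff substrates the value at 2 h was 0.53 (95% interval 0.048 to 1.00, edgeR adjusted p = 0.31). From 2 h to 12 h *Evx1* rose on stiff substrates by 1.16, and on soft substrates the value was 0.26 (95% interval −0.17 to 0.70). After CHIRON removal *Evx1* had between 0.308 and 1.62 CPM (6 to 25 counts) and passed the test at neither time. On soft substrates it had 1.13 and 1.03 CPM at 0 h and 0.339 and 1.62 CPM at 12 h. On stiff substrates it had 1.14 and 0.866 CPM at 0 h and 0.308 and 0.538 CPM at 12 h. An antisense gene, *Evx1os*, overlaps exons of *Evx1* and had up to 24 counts in PD03 removal and up to 7 in CHIRON removal. The antisense gene *Gm33460* likewise overlaps exons of *Eomes* and had up to 9 counts in CHIRON removal. Since it is not given in the sources used here whether counting used strand, reads of these pairs cannot be told apart with certainty.

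*Gsc* (chromosome 12, 104471209 to 104473330), the homeobox gene goosecoid of the organiser and anterior streak, was the only tested gene of the 10 that fell at 12 h after PD03 removal. On soft substrates it went from 5.75 and 5.14 CPM at 0 h to 4.13 and 4.93 CPM at 2 h and 2.41 and 3.00 CPM at 12 h. On stiff substrates it went from 4.48 and 5.54 CPM to 3.72 and 3.24 CPM at 2 h and 1.87 and 0.660 CPM at 12 h. Every library at 12 h was below every earlier library of its substrate. The log2 fold changes at 12 h were −1.01 on soft (standard error 0.25, edgeR adjusted p = 0.0026) and −1.95 on stiff substrates (standard error 0.30, edgeR adjusted p = 5.8e-06), and the latter was −2.92 without stiff 12 h replicate 1 and −1.43 without stiff 12 h replicate 2. From 2 h to 12 h it fell by 1.42 on stiff substrates, which became −2.39 without stiff 12 h replicate 1 and −0.89 without stiff 12 h replicate 2. On soft substrates it fell by 0.74 (edgeR adjusted p = 0.032), a call lost with DESeq2 (adjusted p = 0.078) and without soft 12 h replicate 1 (−0.59), soft 12 h replicate 2 (−0.91) or soft 2 h replicate 2 (−0.61).

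After CHIRON removal *Gsc* had 3.39 and 2.70 CPM at 0 h and 5.61 and 4.35 CPM at 12 h on soft substrates, and 2.92 and 3.35 CPM at 0 h and 4.68 and 4.14 CPM at 12 h on stiff substrates. The groups did not overlap, but the share of all genes for which this held was not counted. The log2 fold changes of 0.73 (95% interval 0.18 to 1.28, edgeR adjusted p = 0.062) and 0.49 (−0.075 to 1.06, edgeR adjusted p = 0.24) did not pass the test. On soft substrates the value passed without the filter on low counts (edgeR adjusted p = 0.025) and without soft 2 h replicate 1 (edgeR adjusted p = 0.048) or soft 2 h replicate 2 (edgeR adjusted p = 0.0499).

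**Figure D2:**
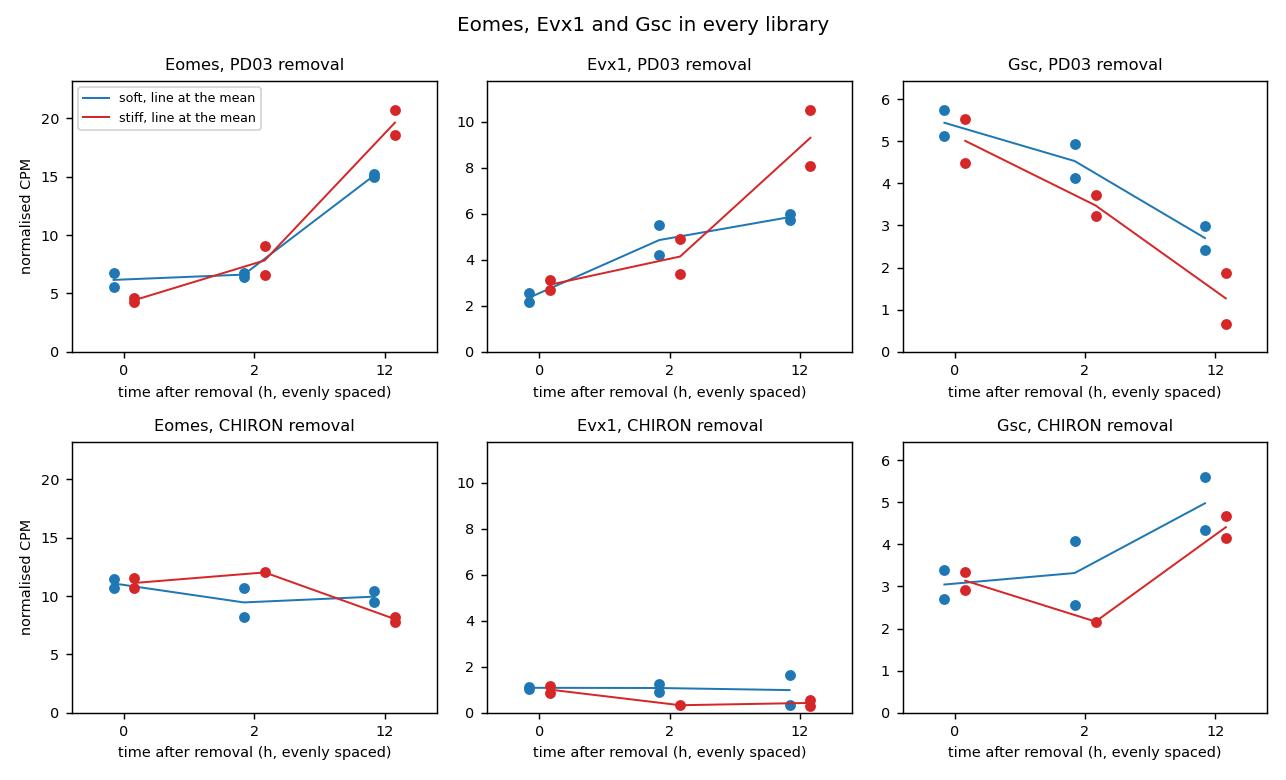
Normalised CPM (linear axis from 0, the same in both panels of a gene) of *Eomes*, *Evx1* and *Gsc* in every library against time after removal (0, 2 and 12 h, evenly spaced). Points are libraries and lines join group means of soft (blue) and stiff (red) substrates. After PD03 removal (upper panels) *Eomes* reaches 14.99 to 20.7 CPM and *Gsc* drops to between 0.660 and 3.00 CPM at 12 h, and after CHIRON removal (lower panels) *Eomes* stays between 7.81 and 12.0 CPM.

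At 12 h after PD03 removal 5 of the 7 tested genes were higher and 1 was lower on each substrate. Over all tested genes 14.1% were higher and 15.3% lower on soft substrates, and 18.5% were higher and 19.9% lower on stiff substrates. The median log2 fold change of the 7 genes was 0.69 on soft and 0.59 on stiff substrates, beside −0.0013 and −0.0014 over all tested genes. At 2 h, 1 gene was higher (*Evx1* on soft, *Eomes* on stiff substrates) and 1 was lower (*Cdx2*), against 1.31% higher and 0.648% lower of all genes on soft and 1.83% higher and 0.894% lower on stiff substrates. From 2 h to 12 h 4 of the 7 genes were higher on soft (15% of all genes) and 5 on stiff substrates (18% of all genes), and *Gsc* was lower on both (16.4% and 19.5% of all genes). The comparisons at 2 h and 12 h share the libraries at 0 h. The summed level of the embryonic stem cell markers was between 5601 and 5998 CPM at 12 h against 6844 to 6997 CPM at 0 h, with 5 of 7 markers lower on each substrate. The trophoblast markers summed to between 33.6 and 44.4 CPM at 12 h against 46.1 to 48.5 CPM at 0 h, with 1 of 2 tested markers lower on stiff substrates and 0 on soft. Those of neuroectoderm summed to between 9.23 and 12.5 CPM against 7.90 to 8.43 CPM, with 1 of 2 tested markers higher on stiff substrates and 0 on soft. Of the 2 tested markers of endoderm (*Gata6* and *Dab2*, at most 26 counts per library each) 1 was higher on soft substrates. Of the 2 of fibroblasts (*Col1a1* and *Thy1*, at most 16 and 24 counts per library) 1 was higher on stiff substrates. The part of these markers in the responses was not tested.

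**Figure D3:**
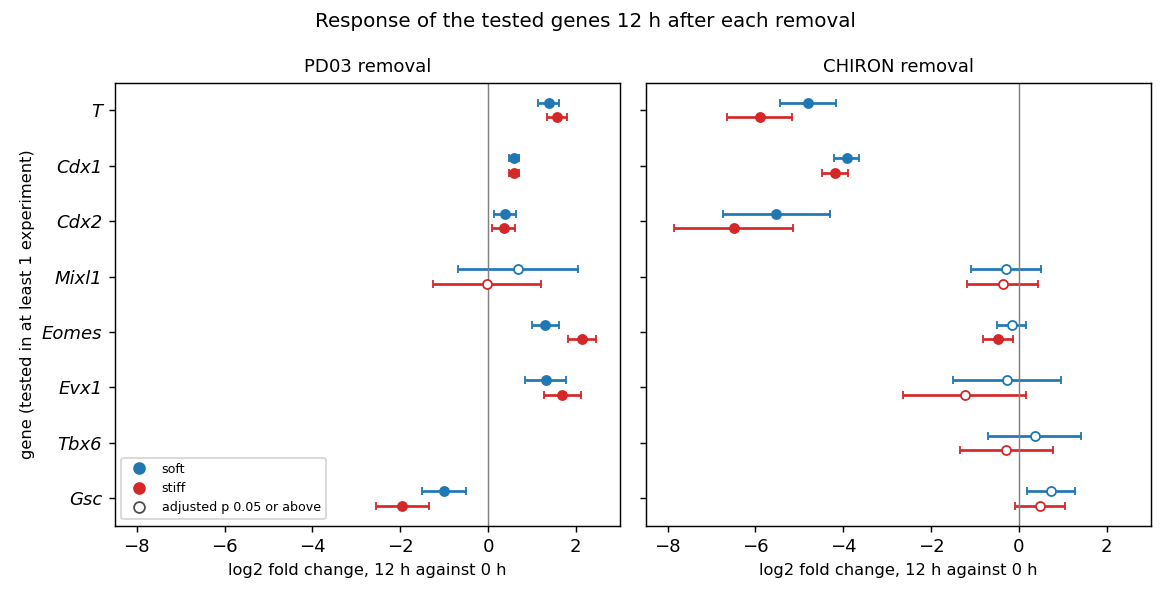
Log2 fold change at 12 h against 0 h (horizontal axis) of each gene that was tested, after PD03 removal (left) and CHIRON removal (right), on soft (blue) and stiff (red) substrates. Bars are 95% intervals and open points did not pass an adjusted p of 0.05. *T*, *Cdx1* and *Cdx2* lie between 0.36 and 1.57 on the left and between −6.49 and −3.92 on the right.

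The other 4 genes had few counts in either experiment. *Mixl1* (chromosome 1, 180693043 to 180697034), a homeobox gene of the streak and mesendoderm, had between 2 and 15 counts per library after PD03 removal and between 21 and 41 after CHIRON removal, and its level ran from 1.13 to 2.11 CPM in the latter. It passed no test. At 12 h its log2 fold changes were 0.69 (95% interval −0.68 to 2.06) on soft and −0.023 (−1.25 to 1.203) on stiff substrates after PD03 removal, and −0.28 (−1.08 to 0.52) and −0.37 (−1.17 to 0.44) after CHIRON removal. Changes of more than 2-fold thus lay within the intervals of both experiments.

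*Tbx6* (chromosome 7, 126781483 to 126785560), a T-box gene of the paraxial mesoderm, had 0 to 7 counts per library after PD03 removal and was not tested there. After CHIRON removal it had 0.639 and 0.558 CPM at 0 h, 1.52 and 1.34 CPM at 2 h and 0.716 and 0.843 CPM at 12 h on soft substrates. Stiff libraries had 1.03 and 0.703 CPM at 0 h, 0.737 CPM at 2 h and 0.514 and 0.915 CPM at 12 h. The soft libraries at 2 h, with 25 counts each, were the highest of the 11, and the log2 fold change there was 1.25 (95% interval 0.24 to 2.25, edgeR adjusted p = 0.43).

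*Cdx4* (chromosome X, 103321398 to 103330592), the member of the *Cdx* family on the X chromosome, had 2 to 8 counts per library after PD03 removal and 1 to 9 after CHIRON removal. In the latter it had 7 and 5 counts on soft and 1 and 5 on stiff substrates at 0 h, and 6 and 7 on soft and 9 and 2 on stiff substrates at 12 h, so that the groups overlapped, and it did not pass the filter on low counts. *Foxa2* (chromosome 2, 148042877 to 148046969), a forkhead gene of the anterior streak and definitive endoderm, had at most 10 counts. Its highest libraries were those of soft substrates at 12 h after PD03 removal, with 10 and 7 counts. The soft libraries had 6 and 4 counts at 0 h and 0 and 1 counts at 2 h, and the stiff libraries 3 and 4 counts at 12 h and 0 to 2 counts before. Only without the filter on low counts was *Foxa2* tested, and its log2 fold change from 2 h to 12 h on soft substrates was then 3.66 (edgeR adjusted p = 0.032). After CHIRON removal it had 4 and 6 counts on soft substrates at 2 h and 0 to 2 counts in every other library.

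**Figure D4:**
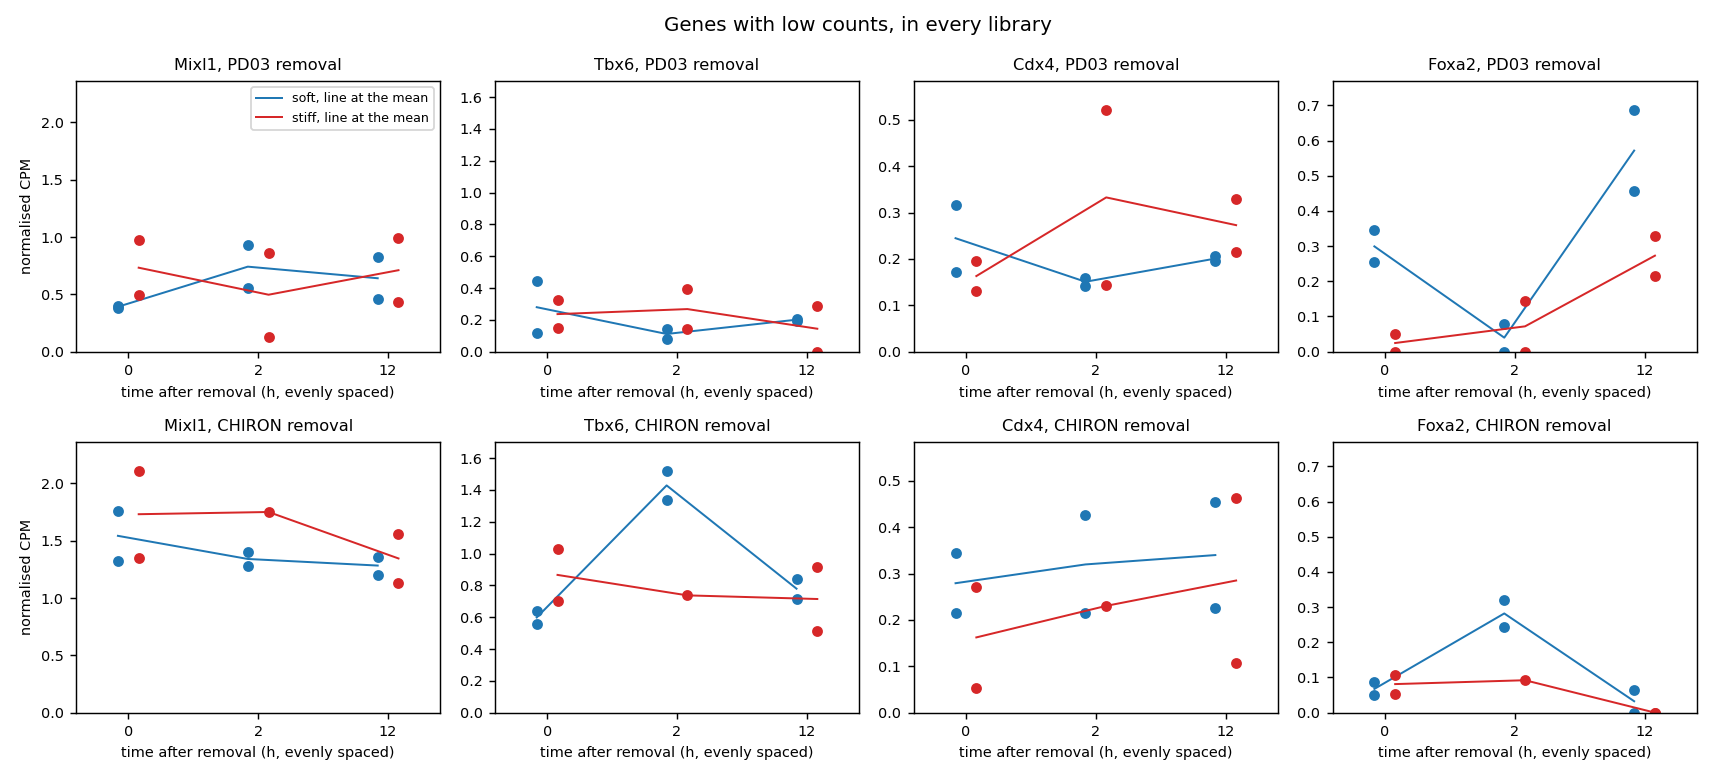
Normalised CPM (linear axis from 0, the same in both panels of a gene) of *Mixl1*, *Tbx6*, *Cdx4* and *Foxa2* in every library against time after removal (0, 2 and 12 h, evenly spaced). Points are libraries and lines join group means of soft (blue) and stiff (red) substrates. All points lie at or below 2.11 CPM, and those of *Cdx4* and *Foxa2* at or below 0.688 CPM.

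Soft and stiff substrates were then compared at each time. After PD03 removal none of the 7 genes passed the test at 0 h, 2 h or 12 h, where 0.0298%, 0.134% and 0.767% of all genes did. At an unadjusted p under 0.05 there were 1 gene at 0 h (*Eomes*), 0 at 2 h and 3 at 12 h (*Eomes*, *Evx1* and *Gsc*), against 7.22%, 8.55% and 9.65% of all genes, and DESeq2 called 0 of the 7 at each time. At 12 h the log2 fold change of *Evx1*, soft against stiff, was −0.67 (95% interval −1.07 to −0.28, edgeR adjusted p = 0.11). This passed without the filter on low counts (edgeR adjusted p = 0.029) and with only the groups compared (edgeR adjusted p = 0.039). *Gsc* differed by 1.05 (95% interval 0.36 to 1.74, edgeR adjusted p = 0.18) and *Eomes* by −0.38 (−0.65 to −0.11, edgeR adjusted p = 0.24). The soft and the stiff libraries at 12 h did not overlap in 4 of the 7 genes (*T*, *Eomes*, *Evx1* and *Gsc*), nor did they in 40.5% of all tested genes. *T* differed by −0.20 (95% interval −0.41 to 0.016), *Cdx1* by −0.017 (−0.13 to 0.097) and *Cdx2* by 0.11 (−0.14 to 0.36). *T*, *Eomes* and *Evx1* had the lower and *Gsc* the higher values on soft substrates, whereas the libraries of *Cdx1* and *Cdx2* overlapped.

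The difference in response between substrates passed the test for none of the 7 genes at 2 h (0.00745% of all genes) or at 12 h (0% of all genes, with 901 genes at an unadjusted p under 0.05 and 0 by DESeq2). For *Eomes* it was −0.70 at 2 h (95% interval −1.21 to −0.19) and −0.85 at 12 h (−1.30 to −0.39, edgeR adjusted p = 0.43). Both values include the libraries at 0 h, where *Eomes* had 5.52 and 6.78 CPM on soft and 4.22 and 4.61 CPM on stiff substrates. The difference between substrates at 0 h did not pass the test either, and its part in the difference in response was not tested. For *Gsc* the difference in response was 0.94 at 12 h (0.12 to 1.77, edgeR adjusted p = 0.68). At an unadjusted p under 0.05 there were 1 gene at 2 h (*Eomes*) and 2 at 12 h (*Eomes* and *Gsc*), against 4.51% and 6.71% of all genes, and DESeq2 called 0 of the 7. For *T* the difference at 12 h was −0.19 (−0.53 to 0.15), and for *Cdx1* it was 0.0053 (−0.16 to 0.17).

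After CHIRON removal none of the 8 genes differed between soft and stiff substrates at 0 h, 2 h or 12 h, and 0% of all genes did at each time by edgeR (494, 804 and 464 genes at an unadjusted p under 0.05, and 0 by DESeq2 at each time). At an unadjusted p under 0.05 there was 1 of the 8 genes at 12 h (*Cdx1*, against 3.28% of all genes) and 0 at the other times. At 12 h the log2 fold change of soft against stiff was 0.37 for *Cdx1* (95% interval 0.036 to 0.71), 1.09 for *T* (−0.28 to 2.46) and 0.77 for *Cdx2* (−2.08 to 3.63). The intervals of *T* and *Cdx2* rest on at most 7 counts per library and leave room for large differences at that time. At 0 h they were −0.40 to 0.38 for *T*, −0.12 to 0.34 for *Cdx1* and −0.87 to 0.47 for *Cdx2*. The difference in response between substrates passed for none of the 8 genes at 2 h or 12 h, with 0 at an unadjusted p under 0.05 and 0 by DESeq2, and 0% of all genes passed at either time (421 and 419 genes at an unadjusted p under 0.05).

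The responses to the removals were compared in 1 fit of all 23 libraries, as the response after CHIRON removal minus that after PD03 removal. Each inhibitor was removed in its own experiment, so the inhibitor and the experiment cannot be told apart here. *Tbx6* is among the 8 tested genes here, although it did not pass the filter in PD03 removal alone. It had 0 to 7 counts per library there, so its differences rest on few reads. At 12 h, 5 of the 8 tested genes had the lower response after CHIRON removal and 1 the higher on each substrate, where 10.9% and 10.8% of all genes did so on soft and 12.8% and 11.4% on stiff substrates. The difference was −6.20 on soft and −7.48 on stiff substrates for *T*, −4.55 and −4.79 for *Cdx1* and −5.92 and −6.86 for *Cdx2*. *Eomes* differed by −1.48 (edgeR adjusted p = 1.2e-05) and −2.63 (edgeR adjusted p = 1.2e-09), where its own log2 fold changes after CHIRON removal were −0.16 and −0.47. *Gsc* was the gene with the opposite sign, with 1.72 (edgeR adjusted p = 0.0012) and 2.43 (edgeR adjusted p = 8.6e-05), and the latter was 3.40 without stiff 12 h replicate 1 of PD03 removal. *Evx1* differed by −2.94 on stiff substrates (edgeR adjusted p = 0.00086). This value includes the lower levels of *Evx1* at 12 h after CHIRON removal there, which did not pass the test by themselves. On soft substrates its −1.68 (edgeR adjusted p = 0.031) was lost in 9 of 30 alternatives, with only the groups compared (edgeR adjusted p = 0.063), with all 12 libraries of CHIRON removal (0.13) and without either soft 0 h or soft 12 h library of PD03 removal, either soft 0 h library of CHIRON removal or soft 12 h replicate 1 of CHIRON removal. Without soft 12 h replicate 1 of CHIRON removal it was −0.77, and without replicate 2 it was −2.99. The fitted difference of *Cdx2* on soft substrates was −9.83 without soft 12 h replicate 1 of CHIRON removal and −5.30 without replicate 2. At 2 h none of the 8 genes differed (0.863% of all genes on soft and 0.8% on stiff substrates), and DESeq2 called 0. At an unadjusted p under 0.05 there were 1 gene on soft (*Tbx6*) and 2 on stiff substrates (*Eomes* and *Evx1*), against 11% and 10.9% of all genes.

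Other genes of the streak were described from a list of 20, of which 11 passed the filter in PD03 removal and 10 in CHIRON removal. At 12 h, 2 were higher and 2 lower on each substrate in both experiments. The shares of all genes were 14.1% higher and 15.3% lower on soft and 18.5% and 19.9% on stiff substrates in PD03 removal, and 10.4% and 7.95% on soft and 9.45% and 8.14% on stiff substrates in CHIRON removal. After CHIRON removal the genes that fell were *Sp5*, a Wnt-responsive zinc finger gene, and *Nkx1-2*, a homeobox gene of the caudal epiblast. *Sp5* went from 168 and 156 CPM to 2.37 and 2.46 CPM on soft substrates, and the log2 fold change was −6.07 there and −5.78 on stiff substrates. It was already lower at 2 h, by 1.06 on soft (edgeR adjusted p = 1.3e-05) and by 0.87 on stiff substrates, where 1 library was used. *T*, *Cdx1* and *Cdx2* did not pass at 2 h. The estimates of *Cdx2* at 2 h were also negative, with wide intervals, and a difference in timing between the genes was not tested. *Nkx1-2* fell by 3.202 and 3.12 at 12 h. The genes that rose were *Lefty2*, an inhibitor of Nodal, by 2.49 and 3.02, and *Nodal*, the ligand itself, by 0.44 and 0.59. After PD03 removal the directions of 3 of these genes were opposite, with *Nkx1-2* higher by 0.97 and 0.71, *Lefty2* lower by −2.46 and −1.34 and *Nodal* lower by −0.50 and −0.44, whereas *Sp5* was at −0.0021 and 0.066 and did not pass. *Sp5* had 69.1 and 72.5 CPM at 0 h and 67.9 and 73.3 CPM at 12 h on soft substrates in that experiment. *Lefty2* at 0 h on soft substrates had 13.9 and 10.3 CPM there and 1.425 and 0.772 CPM in CHIRON removal, normalised separately. The inhibitor removed and the experiment cannot be told apart in these opposite responses.

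The 12 general Wnt targets of a further list were all tested in CHIRON removal, where 8 were lower and 1 higher on soft and 7 lower and 1 higher on stiff substrates at 12 h. Of all genes 7.95% and 8.14% were lower and 10.4% and 9.45% higher. The median log2 fold change of the list was −0.80 on soft and −0.71 on stiff substrates, beside 0.0086 and 0.0045 over all genes. *Axin2*, a negative regulator of the pathway, fell by 2.63 on soft and 2.57 on stiff substrates, *Lef1*, a factor that binds β-catenin, by 2.25 and 1.41, *Dkk1*, a secreted Wnt inhibitor, by 1.69 and 1.72, and *Rnf43*, a ubiquitin ligase that removes Wnt receptors, by 2.27 and 4.05. *Axin2* had fallen at 2 h as well, by 0.55 (edgeR adjusted p = 0.0025) and 0.57 (edgeR adjusted p = 0.027). On the log2 scale *T*, *Cdx1* and *Cdx2* thus had larger falls at 12 h than *Axin2*, *Lef1*, *Dkk1* and *Rnf43* on both substrates. The fall of *Rnf43* on stiff substrates was close to that of *Cdx1*, but it rests on few reads. At 12 h *Rnf43* had 5 and 7 counts on soft and 1 and 2 counts on stiff substrates, so its place in this order is uncertain. *Sp5*, of the streak list, fell more than *T*, *Cdx1* and *Cdx2* on soft substrates and more than *Cdx1* on stiff substrates. The difference between genes was not tested. After PD03 removal 11 of the 12 were tested, and 5 were higher and 3 lower on soft and 4 higher and 4 lower on stiff substrates at 12 h, where 14.1% and 15.3% of all genes were so on soft and 18.5% and 19.9% on stiff substrates. The list had medians of 0.12 and 0.24, beside −0.0013 and −0.0014 over all genes. *Axin2* was higher by 0.20 and 0.24 and *Lef1* by 0.64 and 0.54 on the log2 scale.

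The genes whose levels followed *T* most closely were *Mcc*, *Ccdc3*, *Lin28a*, *Ddx58* and *Inf2*, ranked by the lower of the Pearson correlations of log2 CPM with *T* over the 12 libraries of PD03 removal and over the 11 of CHIRON removal. This lower correlation was between 0.959 and 0.983 among 13087 genes that were ranked. These correlations are a description, since the libraries of a group share their substrate, treatment and time. *Cdx1* ranked 6th with 0.957, *Cdx2* ranked 236th with 0.774, *Eomes* 591st with 0.627 and *Evx1* 1169th with 0.450. *Gsc* had correlations of −0.82 and −0.76. *Lin28a*, which encodes an RNA-binding protein that blocks let-7 maturation, went from 112 and 106 CPM to 331 and 326 CPM on soft substrates after PD03 removal and from 42.8 and 43.7 CPM to 10.9 and 9.01 CPM after CHIRON removal.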

How the data were processed

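RNA of E14 mESCs was depleted of ribosomal RNA and sequenced in 24 libraries from 2 experiments. The authors aligned the reads to GRCm38 (mm10) with TopHat2 2.1.0, counted reads per gene with featureCounts 1.5.0 and deposited the counts without normalisation, and Trim Galore and DESeq2 are also named in the submitters' processing notes. Whether the counting used strand is not given in the sources used here. From the file of PD03 removal 23 empty lines and 12 columns of other samples were left out, and 15 identifiers in it had become dates. Gene types and exon lengths came from GENCODE M21, so lengths are those of all annotated exons and not of the transcripts in use.

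In R 4.3.3, edgeR 4.0.16 (filterByExpr with a minimum count of 10 and a total of at least 15) was applied to protein-coding genes, which left 13423 genes in PD03 removal and 14145 in CHIRON removal. They were normalised by TMM and fitted with edgeR's quasi-likelihood model over all groups of an experiment. Responses to the removals were compared in 1 model of both experiments (14376 genes). Benjamini-Hochberg adjustment ran over all tested genes, with a threshold of 0.05. The script was tested on simulated data. Levels are TMM-normalised CPM, and log2 CPM for correlations had a prior count of 2.

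The genes, the lists and the alternatives were chosen with earlier results of these data known. All 10 genes are named, and from each list at most 4 genes with the largest change at 12 h after CHIRON removal that passed on both substrates. A further list of genes is not reported here. The 5 genes most like *T* were taken by the lower of their correlations with it. Alternatives were DESeq2 1.42.0, its size factors in edgeR, no filter on low counts, all genes, a replicate block, only the groups compared, all 12 libraries of CHIRON removal and leaving out each library. Replicate numbers came from the sample titles. After subtraction of the group means, libraries with the same number correlated on average by −0.0028 over 15 pairs of groups in PD03 removal and −0.024 over 10 pairs in CHIRON removal, so the numbers did not pair the libraries. Replicates were compared by a chi-square test of their counts, which per degree of freedom was above sampling noise in each group of 2. It was 2.65 at the lowest (stiff, 12 h of PD03 removal) and 58.5 at the highest (soft, 12 h of CHIRON removal). The 2 libraries of the latter group had 31111260 and 19393787 counts, of which 85.31% and 78.02% were of protein-coding genes. All soft values at 12 h of CHIRON removal rest on them. Python 3.11.15 with numpy 2.4.6, pandas 2.3.3 and matplotlib 3.10.9 was used for tables and figures.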

Additional observations from a re-analysis of the deposited data

How the results depend on the processing

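Of the 52 calls made for the 10 genes, 43 were kept in every alternative, 9 were lost in some and 0 reversed. Calls lost, and called values whose fold moved by more than 1.5 times without a library, stand beside their results. For the streak and *Cdx* genes, soft against stiff at 12 h of PD03 removal gave 1 call with no low-count filter and 1 with only the groups compared, and 12 h against 2 h of CHIRON removal on stiff substrates gave 5 with no low-count filter in place of 3. Leaving out 1 library gave 0 to 2 calls at 2 h of PD03 removal on each substrate. The cause of these changes was not tested.

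Over all genes, DESeq2 called 174 genes at 2 h of PD03 removal on soft substrates (263 with edgeR), 48 and 23 at 2 h of CHIRON removal on soft and stiff (26 and 14), and 2, 9 and 65 for soft against stiff at 0, 2 and 12 h of PD03 removal (4, 18 and 103). With no low-count filter the last 3 were 29, 71 and 187, the difference in response between substrates 6 at 2 h (1) and 17 at 12 h (0), the 2 h response to CHIRON removal 144 and 89, soft against stiff in CHIRON removal 17, 54 and 15 (0 each), its difference in response 14 and 7 (0 each), and the difference between removals at 2 h 230 and 258 (124 and 115). With all genes, soft against stiff at 0 h of PD03 removal gave 0 and 2 h of CHIRON removal on stiff substrates gave 5. With only the groups compared there were 175 for soft against stiff at 12 h of PD03 removal, 48 and 3 at 2 h of CHIRON removal, 30 for soft against stiff at 2 h of CHIRON removal and 62 for the difference between removals at 2 h on stiff substrates. With all 12 libraries of CHIRON removal, whose added library has few counts, there were 1 and 0 at 2 h, 457 and 461 at 12 h against 0 h (2599 and 2487), 372 and 207 at 12 h against 2 h (2530 and 1544), and 25, 22, 941 and 1218 for the difference between removals at 2 h and 12 h (12 h: 3126 and 3490).

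Leaving out 1 library gave, in PD03 removal, 140 to 304 and 209 to 362 genes at 2 h, 2618 to 4076 at 12 h on soft substrates, 0 to 5, 5 to 28 and 12 to 122 for soft against stiff at 0, 2 and 12 h, and 0 to 2 and 0 to 1 for the difference in response. In CHIRON removal it gave 10 to 37 and 5 to 28 at 2 h, 1396 to 2776 and 1308 to 2533 at 12 h against 0 h, 1334 to 2703 and 773 to 1706 at 12 h against 2 h, 0 to 12 for soft against stiff at 0 h and at 2 h, and 0 to 11 and 0 to 8 for the difference in response. The difference between removals at 2 h had 48 to 167 and 76 to 199.

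The replicate block, for numbers that did not pair the libraries, left the calls of the 10 genes at the same number in every comparison except 12 h of CHIRON removal on stiff substrates, where 3 in place of 4 passed. It gave 4 genes in place of 14 at 2 h of CHIRON removal on stiff substrates.

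Groups had 2 libraries, and 1 at 2 h on stiff substrates in CHIRON removal. A comparison that was not called therefore does not exclude differences within its printed interval. *Cdx4*, *Foxa2* and, in PD03 removal, *Tbx6* did not pass the filter on low counts. *Gsc* at 12 h against 2 h of CHIRON removal on stiff substrates (1.02, edgeR adjusted p = 0.067) passed in 2 alternatives, and *Eomes* there (−0.58, edgeR adjusted p = 0.055) in 5.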
